A study of Homo sapiens with 4 samples.

Results

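A set of 9 genes that are read as markers of primed human pluripotency, apart from the core factors SOX2, POU5F1 and NANOG, was followed at day 2 of hematopoietic differentiation of H1 cells, an established human embryonic stem cell line. These genes are DPPA2, DPPA4, L1TD1, LIN28A, LIN28B, ZFP42, PRDM14, SALL4 and USP44. The rule takes rows by gene symbol, and all 9 were found, each in a single row, among 58365 gene rows. All cells received activin A and BMP4 for 2 days, at 40 and 50 ng/ml according to the sample labels, and the study's methods state the amounts the other way round. One group, labelled DMSO, was the control without inhibitor. The other group was given IWP2, a small molecule that blocks Porcupine, the enzyme that attaches the lipid which Wnt proteins need for their secretion. The dose of IWP2 is not given in the sources used here. Each group had 2 libraries from 1 cell line, with no sort named, and the labels do not say whether they came from separate cultures, so the p-values below measure only the spread between these libraries.

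Primed pluripotent stem cells, the state in which human embryonic stem cell lines are usually kept, resemble the epiblast shortly before gastrulation. Beside the core factors they express RNA-binding proteins of the LIN28 family and L1TD1, the chromatin proteins DPPA2 and DPPA4, the zinc finger factors ZFP42 (REX1), PRDM14 and SALL4, and the deubiquitinase USP44. Wnt, Nodal and BMP signals drive the exit of such cells towards mesoderm, and these genes need not all be silenced on it. LIN28A and LIN28B bind the precursors of the let-7 microRNAs and stop their maturation.

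The control cells and the IWP2 cells differed first in this exit itself. All 15 tested genes of a list of 16 mesoderm and primitive streak genes fell with IWP2, for example APLNR, the apelin receptor that marks early mesoderm, from a mean of 446 to 2.68 FPKM and MESP1, a nascent mesoderm factor, from 61.1 to 0.165 FPKM. FPKM is the number of fragments scaled to transcript length and to library size, so that levels of different genes can be set side by side. The log2(FPKM + 1) differences of the 15 mesoderm genes ran from -6.91 to -0.60, so some fell far less than these examples. Of 11 Wnt target genes, 8 fell and none rose, among them SP5, a direct target of β-catenin, from 50.1 to 0.371 FPKM. The summed level of the 16 mesoderm genes, of which APLNR was the most abundant, was 1319 and 1675 FPKM in the DMSO libraries and 195.8 and 216.2 FPKM with IWP2. That of 7 definitive endoderm genes, led by CER1, was 1918 and 2307 FPKM against 126.3 and 137.3 FPKM. None of these markers was at 0 in every library, and MSGN1, a presomitic mesoderm factor, was at 0 in both IWP2 libraries. Their part in the differences of the 9 genes was not tested. A change was called at an adjusted p under 0.05 in limma fitted on log2(FPKM + 1) over 15980 genes, of which 2104, or 13.2%, were called. Of all tested genes, 5.81% were called higher with IWP2 and 7.35% lower.

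Against this background, 4 of the 9 genes were called. With IWP2, 3 rose (PRDM14, DPPA4 and ZFP42) and 1 fell (DPPA2), while LIN28A, LIN28B, L1TD1, SALL4 and USP44 did not pass the test. The median log2 difference of the 9 genes was -0.05, beside -0.01 for all tested genes. All 9 had a mean of at least 0.5 FPKM over the 4 libraries, the minimum for a gene to be tested. In 8 of the 9, both libraries of one group lay above both of the other, which was also the case for 58.6% of all tested genes. When either IWP2 library was left out, none of the 9 genes passed the test, and 179 or 214 of all genes did. Without DMSO replicate 1, PRDM14 and DPPA4 passed, and without DMSO replicate 2, these and USP44. In bulk RNA, fewer cells expressing a gene and less RNA per cell cannot be told apart.

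**Figure D1:**
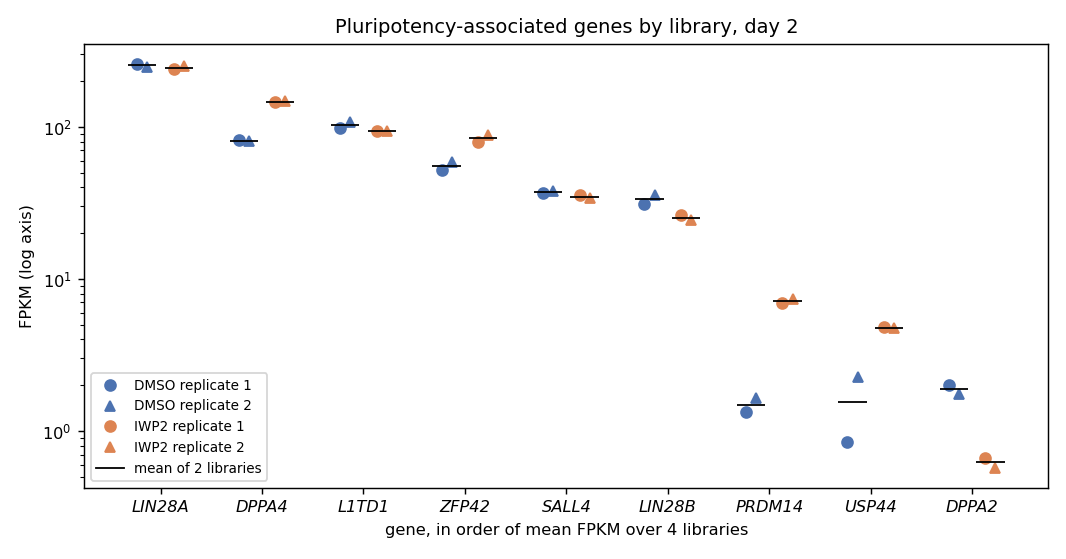
FPKM on a log axis of the 9 genes in each of the 4 libraries (blue, DMSO; orange, IWP2; circles, replicate 1; triangles, replicate 2; lines, means of 2 libraries). LIN28A, L1TD1 and SALL4 lie at nearly the same height in both groups, PRDM14, DPPA4 and ZFP42 lie higher with IWP2, and DPPA2 lies lower.

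DPPA2 and DPPA4 are neighbours, and their differences had opposite signs, with the call of DPPA2 the less stable. Both encode SAP-domain proteins that bind DNA together and are known to keep the promoters of developmental genes poised. In GRCh38 coordinates, as the table's rows give them, DPPA2 spans chr3:109293788-109316517 and DPPA4 spans chr3:109326141-109337572. Both are protein-coding genes on the minus strand, with 9623 bases between them. Within 500000 bases on either side of the pair, no other gene reached a mean of 0.5 FPKM.

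DPPA4 measured 82.0 and 80.2 FPKM in the DMSO libraries and 145 and 148 FPKM with IWP2. The groups were far apart in relation to the spread within them. The increase was 0.85 ± 0.07 on the log2(FPKM + 1) scale (SE, n = 2 against 2 libraries, limma adjusted p = 0.00409), or 1.81-fold in mean FPKM. DPPA2 measured 2.01 and 1.76 FPKM in the DMSO libraries and 0.668 and 0.575 FPKM with IWP2. It was the scarcest of the 9 genes over all libraries, and it was lower in both IWP2 libraries. The log2 value fell by 0.83 ± 0.17 (SE, n = 2 against 2, limma adjusted p = 0.0373), and the control mean was 3.04 times the IWP2 mean. With 0.1 in place of 1 added to each FPKM value, the log2 difference was -1.46 for DPPA2 and 0.855 for DPPA4. The call of DPPA2 was lost in 6 of 12 alternative settings, among them no filter on low values (adjusted p = 0.103) and leaving out any 1 of the 4 libraries (0.0956 to 0.198), and that of DPPA4 in 2, without either IWP2 library. For DPPA2, with a single annotated transcript of 1383 bases, the values would stand for about 51 and 40 fragments in the DMSO libraries and 19 and 14 with IWP2. DPPA4 therefore exceeded DPPA2 by 40.7 and 45.6 times in the control cells and by 217 and 258 times with IWP2.

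The 250 bases before each start site are shown because the differences of these adjacent genes had opposite signs. They are RefSeq windows on GRCh38.p14, read 5′ to 3′ on the minus strand, at chr3:109337547-109337796 for DPPA4 and chr3:109316518-109316767 for DPPA2. Capitals mark matches, on either strand, to the octamer core TGCAAAT known from POU factors, to CTTTGT, a core shared by SOX and TCF/LEF factors, or to the TCF/LEF core CTTTGA.
DPPA4: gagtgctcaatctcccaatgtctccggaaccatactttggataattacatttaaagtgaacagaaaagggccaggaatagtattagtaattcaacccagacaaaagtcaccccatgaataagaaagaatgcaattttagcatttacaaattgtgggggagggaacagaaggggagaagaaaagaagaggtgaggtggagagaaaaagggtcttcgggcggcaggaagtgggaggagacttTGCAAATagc
DPPA2: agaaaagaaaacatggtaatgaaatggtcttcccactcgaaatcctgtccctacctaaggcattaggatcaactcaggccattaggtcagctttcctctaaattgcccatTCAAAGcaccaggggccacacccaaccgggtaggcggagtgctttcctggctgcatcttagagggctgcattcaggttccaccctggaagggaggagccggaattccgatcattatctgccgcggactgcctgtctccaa
The DPPA4 window held the octamer core at positions -10 to -4 from the RefSeq start site and neither of the other motifs. The DPPA4 span given above ends at chr3:109337572, inside this window, so in those coordinates the octamer core lies within the gene. The DPPA2 window held the TCF/LEF core in reverse orientation, as TCAAAG, at positions -140 to -135. Of 35116 promoter windows of the same length, 3.7% held the octamer core, 13.7% CTTTGT and 11.2% CTTTGA. The DPPA4 window was poorer in GC (43.2%) than the DPPA2 window (52.0%) and than the median of all windows (58.0%), and held 3 CpG dinucleotides against 7 and a median of 11. A match of letters is a description and not a bound site. Windows for L1TD1, LIN28B (2 windows) and ZFP42 were also searched. ZFP42 and L1TD1 held none of these letters, and 1 LIN28B window held CTTTGT in reverse orientation. No window of LIN28A, SALL4, USP44 or PRDM14 was searched.

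PRDM14 had the largest log2 difference of the 9 genes. It encodes a PR-domain zinc finger protein that keeps POU5F1 active and differentiation genes silent in human embryonic stem cells. It measured 1.34 and 1.64 FPKM in the DMSO libraries and 6.98 and 7.42 FPKM with IWP2, so that the groups did not overlap. The increase was 1.72 ± 0.14 on the log2(FPKM + 1) scale (SE, n = 2 against 2, limma adjusted p = 0.00383), and the mean FPKM was 4.83 times the control mean. The log2(FPKM + 1) scale understates changes of such scarce genes, and with a pseudocount of 0.1 the difference was 2.20. Among the 13 genes of a list of PRDM relatives with the PRDM14 partner CBFA2T2, 8 were tested and none was called in limma. The share called among all tested genes was 13.2%. CBFA2T2 measured 11.3 FPKM in the control cells and 13.0 FPKM with IWP2 (means of 2).

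ZFP42, also called REX1, is a zinc finger gene derived from the YY1 family and long used to mark undifferentiated cells. It spans chr4:187995771-188005050 on the plus strand. It measured 52.4 and 58.9 FPKM in the DMSO libraries and 79.2 and 89.0 FPKM with IWP2. Both treated libraries were higher, by less than for DPPA4 or PRDM14. The increase was 0.59 ± 0.10 on the log2(FPKM + 1) scale (SE, n = 2 against 2, limma adjusted p = 0.0264), or 1.51-fold in mean FPKM. This call was lost in 6 of 12 alternative settings, namely with no filter on low values (adjusted p = 0.105), without the intensity trend (0.0592) and when any 1 of the 4 libraries was left out (0.071 to 0.173).

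USP44 was the gene whose control libraries disagreed most. It encodes a deubiquitinase of histone H2B that also restrains the anaphase-promoting complex, and spans chr12:95516560-95551490 on the minus strand. It measured 0.851 and 2.27 FPKM in the DMSO libraries and 4.83 and 4.72 FPKM with IWP2. Both treated libraries were higher than both controls, but the 2 controls differed by more than a factor of 2. With this spread the difference of 1.23 ± 0.29 on the log2(FPKM + 1) scale (SE, n = 2 against 2) had a limma adjusted p of 0.0574 and was not called. Without DMSO replicate 1 the difference was 0.82, and without DMSO replicate 2 it was 1.64. If all fragments came from its longest annotated transcript, of 4022 bases, the 2 control values would stand for about 73 and 175 fragments. When only genes with a mean of at least 1 FPKM were tested, USP44 passed. Of 9 genes for other H2B deubiquitinases and for the H2B ubiquitin ligase with its E2 enzymes, 1 fell with IWP2 and none rose. The one that fell was USP3, from 14.1 to 6.41 FPKM, while USP22, of the SAGA complex, measured 105 and 100 FPKM. Of all genes tested at the 0.5 FPKM minimum, 7.35% were called lower with IWP2 and 5.81% higher.

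**Figure D2:**
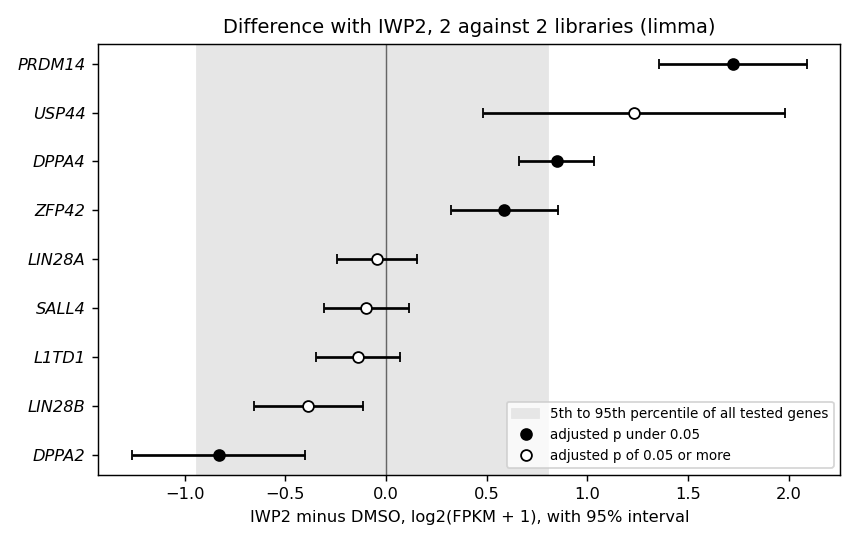
Difference between IWP2 and DMSO for each of the 9 genes on the log2(FPKM + 1) scale, with its 95% interval from limma (filled, adjusted p under 0.05; open, 0.05 or more; grey, 5th to 95th percentile of all tested genes, -0.94 to 0.81). The 3 genes that rose lie between 0.59 and 1.72, DPPA2 lies at -0.83, and the intervals of LIN28A, SALL4 and L1TD1 include 0.

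Of the 3 genes for RNA-binding proteins, none passed the test. LIN28A, the most abundant of the 9 genes, measured 258 and 248 FPKM in the DMSO libraries and 239 and 252 FPKM with IWP2, and it lay at the 98th percentile of all tested genes in each of the 4 libraries. This was the only one of the 9 genes whose groups overlapped. The difference was -0.05 on the log2(FPKM + 1) scale, with a 95% interval from -0.24 to 0.15 (limma adjusted p = 0.746). L1TD1, a protein derived from the LINE-1 transposon that binds RNA together with LIN28A, measured 98.8 and 108 FPKM in the DMSO libraries and 93.4 FPKM in both IWP2 libraries. Its difference of -0.14 (95% interval -0.35 to 0.07, limma adjusted p = 0.333) did not pass the test. A fall of L1TD1 by more than 0.35 on this scale, or a change of LIN28A by more than 0.24, would lie outside these intervals. LIN28A spans chr1:26410778-26429722 and L1TD1 chr1:62194831-62212328, both on the plus strand. A short gene that L1TD1 overlaps, AL162739.1, was listed at 3.17 and 0 FPKM in the DMSO libraries and 4.29 and 0 FPKM with IWP2. It spans only chr1:62208136-62208442, so such values would stand for few fragments.

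LIN28B, the paralog that resides largely in the nucleolus in some cells, measured 31.1 and 35.6 FPKM in the DMSO libraries and 26.2 and 24.3 FPKM with IWP2. Both treated libraries were lower, but the difference of -0.39 ± 0.11 (SE, n = 2 against 2, 95% interval -0.66 to -0.12) had a limma adjusted p of 0.081 and was not called. The ratio of LIN28A to LIN28B was 8.29 and 6.97 in the control libraries and 9.11 and 10.4 with IWP2. The difference in this ratio was not tested. LIN28B spans chr6:104936616-105083332 on the plus strand, and its start lies within the antisense gene LIN28B-AS1, at no more than 0.298 FPKM in any library.

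The mature let-7a sequence, from RefSeq (GRCh38.p14, chr9:94175962-94175983, plus strand), is shown with its seed, bases 2 to 8, in capitals because let-7 is what both LIN28 proteins hold back. In the hairpin from which it is cut (chr9:94175957-94176036), capitals mark GGAG, the letters that the zinc knuckles of LIN28 are known to contact. GGAG occurred in 9 of the 12 let-7 family hairpins.
let-7a: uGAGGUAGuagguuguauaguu
let-7a-1 hairpin: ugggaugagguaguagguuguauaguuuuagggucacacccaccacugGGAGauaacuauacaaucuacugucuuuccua
The microRNAs themselves were not measured here. Of 18 genes for let-7 processing, for uridylation and decay of its precursors, and for known let-7 targets, 1 was called and it rose. Of all tested genes, 13.2% were called in either direction and 5.81% were called higher. The called gene of the list was HMGA2, a chromatin architectural gene with many let-7 sites, from 55.3 to 100.4 FPKM (log2 difference 0.85 ± 0.10, SE, n = 2 against 2, limma adjusted p = 0.00994). HMGA1 was the most abundant gene of the list and measured 1020 FPKM in the control cells and 1304 FPKM with IWP2 (adjusted p = 0.0703).

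SALL4 did not pass the test, whereas its 3 paralogs did, and the difference between the paralogs' changes was not itself tested. The SALL genes encode zinc finger factors, of which SALL1 and SALL4 are known to bring the NuRD deacetylase complex to DNA. SALL4, at chr20:51782331-51802520 on the minus strand, measured 36.6 and 37.8 FPKM in the DMSO libraries and 35.6 and 33.8 FPKM with IWP2. The IWP2 libraries lay just below the controls, and the difference of -0.10 on the log2(FPKM + 1) scale (95% interval -0.31 to 0.12) had a limma adjusted p of 0.499. SALL1 fell from 51.3 and 61.4 to 25.9 and 24.9 FPKM (log2 difference -1.11 ± 0.11, SE, n = 2 against 2, limma adjusted p = 0.00612). SALL2 rose from 23.2 and 23.6 to 60.6 and 54.2 FPKM (1.26 ± 0.09, adjusted p = 0.00287). SALL3 rose from 1.33 and 2.07 to 4.25 and 5.02 FPKM (1.07 ± 0.19, adjusted p = 0.0281). SALL1 was thus the most abundant of the 4 genes in the control cells and SALL2 with IWP2. Of 13 NuRD subunit genes, 1 was called, beside 13.2% of all tested genes. MTA2 fell from 74.2 to 57.8 FPKM, whereas the deacetylase HDAC2 (250 and 216 FPKM) and the histone chaperone RBBP4 (139 and 143 FPKM) were not called.

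**Figure D3:**
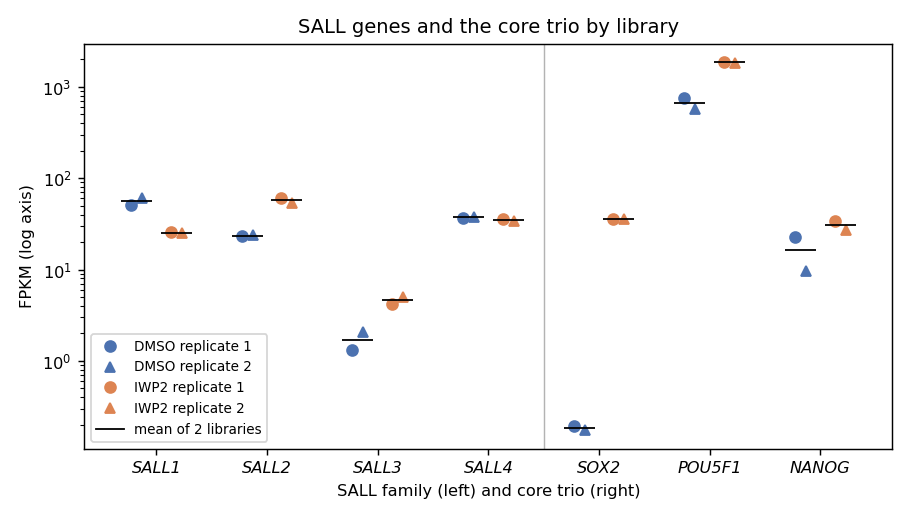
FPKM on a log axis of the 4 SALL genes (left) and of the core trio (right) in each library, with colours and symbols as in the plot of the 9 genes and lines at the means of 2 libraries. SALL4 lies between 33.8 and 37.8 FPKM in all libraries, SALL1 lies lower with IWP2, and SALL2, SALL3, SOX2 and POU5F1 lie higher.

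Of the core trio, measured in the same libraries, SOX2 had a larger difference than any of the 9 genes. It measured 0.193 and 0.174 FPKM in the DMSO libraries and 35.6 and 36.1 FPKM with IWP2 (log2 difference 4.96 ± 0.12, SE, n = 2 against 2, limma adjusted p = 0.00031). POU5F1 rose from a mean of 661 to 1849 FPKM, and NANOG, at 23.0 and 9.54 against 33.6 and 27.5 FPKM, was not called (adjusted p = 0.183). In control cells with SOX2 at this level, LIN28A, L1TD1, DPPA4, ZFP42, SALL4 and LIN28B were between 31.1 and 258 FPKM, from the 81 to the 98.1 percentile of tested genes. The other 3 genes, DPPA2, PRDM14 and USP44, were between 0.851 and 2.27 FPKM there, from the 11.1 to the 26.6 percentile.

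The wider list of 22 genes known from primed cells was also divided. With IWP2, 12 of them rose, 3 fell and 7 were not called, with a median log2 difference of 0.68. SCNN1A, a sodium channel subunit of epithelia, rose from a mean of 6.29 to 49.1 FPKM. PODXL, the sialomucin that carries the TRA-1 antigens, rose from a mean of 121 to 474 FPKM, with its DMSO libraries apart at 166 and 76.5 FPKM. Among those that fell were TDGF1, the Nodal co-receptor, from 212 to 101 FPKM and DUSP6, a feedback inhibitor of ERK, from 33.8 to 8.64 FPKM. Both are also known to be expressed in the streak, and whether this bears on their fall was not tested. GAL, the most abundant gene of the list, measured 305 and 437 FPKM (adjusted p = 0.0701).

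**Figure D4:**
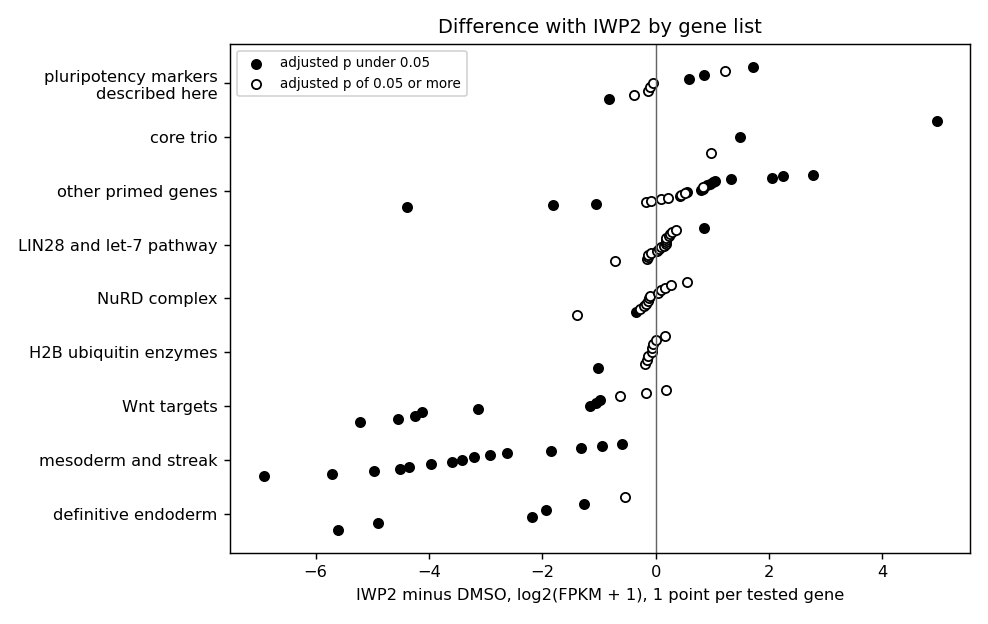
Difference between IWP2 and DMSO on the log2(FPKM + 1) scale, 1 point for each tested gene, for the 9 genes and 8 other lists (filled, limma adjusted p under 0.05; open, 0.05 or more). The 9 genes lie between -0.83 and 1.72, the core trio and most other primed genes lie above 0, and all mesoderm and streak genes lie below 0.

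The order of the levels also differed between the groups. In the control cells it ran from LIN28A (253 FPKM, mean of 2) over L1TD1 (103), DPPA4 (81.1), ZFP42 (55.6), SALL4 (37.2) and LIN28B (33.4) down to DPPA2 (1.89), USP44 (1.56) and PRDM14 (1.49), where the library values of USP44 overlapped those of DPPA2 and of PRDM14, and DPPA2 lay above PRDM14. With IWP2, DPPA4 (147) stood above L1TD1 (93.4) and ZFP42 (84.1), followed by SALL4 (34.7) and LIN28B (25.3), and PRDM14 (7.20), USP44 (4.78) and DPPA2 (0.621) did not overlap. Among all tested genes PRDM14 moved from the 17.9 and 21.5 percentiles to 48.1 and 49.6, and DPPA2 from 24.3 and 22.6 to 8.4 and 6.5.

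For each gene, the tested gene with the most similar pattern was found among 14021 genes of at least 1 FPKM on average, as the smallest Euclidean distance between the 4 centred log2(FPKM + 1) values. With only 4 libraries many genes lie close, so this is a description. LIN28A was nearest to GNB2 (distance 0.00509), SALL4 to AGAP6 (0.00941) and L1TD1 to MARS (0.008). LIN28B was nearest to BCL2L2 (0.0211), DPPA4 to MAP7 (0.0269) and ZFP42 to THTPA (0.0285). DPPA2 was nearest to FMN2 (0.0617), PRDM14 to CPZ (0.0658) and USP44, whose controls disagreed, to EML1 (0.218).

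The depth behind these values could be read from the table itself. In single-exon genes of at least 1000 bases the FPKM values fell in steps of whole fragments, so that 1 FPKM stood for about 22.9 and 20.6 fragments per 1000 bases of transcript in the DMSO libraries and 25.3 and 21.9 in the IWP2 libraries, once 258 to 287 bases were taken off each length. Of the values standing for 1 to 5 fragments, 95.4% to 96.6% lay within 0.1 of a whole number. Genes above 0 FPKM numbered from 24205 to 24512 per library. Among 11 genes named as pseudogene copies of LIN28A, DPPA2 or SALL4, the highest value in any library was 0.268 FPKM.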

How the data were processed

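Total RNA of H1 cells at day 2 was made into TruSeq libraries, and the authors deposited 1 table of values per gene and library. The deposited values were taken as FPKM: the header names no unit, but the columns sum to between 616418 and 653850, and low values of single-exon genes fall in steps of 1 fragment divided by length. The submitters' processing notes name BWA, Bowtie, RSEM and the build hg19, without versions or roles. The row coordinates are nevertheless GRCh38, since 55629 of 55723 gene IDs shared with GENCODE release 29 have identical positions. The control columns are named as without IWP2 and were assigned to the DMSO group. No 2 columns were identical.

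Genes with a mean of at least 0.5 FPKM over the 4 libraries were tested with limma 3.58.1 (R 4.3.3, intensity trend, group only) on log2(FPKM + 1), two-sided, with Benjamini-Hochberg adjustment. The procedure was tested on simulated data. Alternatives varied the pseudocount, filter, scaling, trend, replicate block and the libraries included. The genes, the gene lists and the rule for naming list genes (the 2 largest called differences and the 2 most abundant genes) were chosen with earlier results of these data known, and the motifs and 4 further genes (SALL3, TDGF1, DUSP6, MSGN1) after values were seen. Promoter and microRNA sequences were from RefSeq (GRCh38.p14). The TruSeq kit does not mark strand, so antisense reads cannot be told apart. A gene named by the rule for list genes is not reported here.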

Additional observations from a re-analysis of the deposited data

How the results depend on the processing

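Over 12 alternative settings, the log2 difference of each of the 9 genes kept its sign. Of 108 values, 89 stayed on their side of the threshold, 16 called differences lost it and 3 (USP44) gained it. With no filter, 28917 genes were tested and 381 were called (118 higher and 263 lower, beside 929 and 1175), with DPPA4 and PRDM14 as the 2 of the 9 genes that passed. Leaving out 1 library at a time gave between 179 and 897 called genes (41 to 369 higher, 138 to 580 lower) and between 0 and 3 of the 9 genes. The lone remaining library of a group is then assumed to vary like the other group. The share of higher genes among those called was 44.2%, but 31.0% with no filter and 21.5% to 43.2% with 1 library left out. ZFP42 missed the threshold without the intensity trend. With the replicate block, 842 genes were higher and 1059 lower, DPPA2 lost its call (limma adjusted p = 0.0593) and USP44 gained one. Deviations of libraries with the same number correlated over genes with r = 0.142, but nothing in the labels says that a number marks a shared culture. Adjusted p-values (limma) over the alternatives ranged from 0.00338 to 0.0749 for DPPA4, 0.00301 to 0.0771 for PRDM14, 0.0197 to 0.173 for ZFP42, 0.0205 to 0.198 for DPPA2 and 0.0329 to 0.268 for USP44. Rescaling shifted the median of all genes to between -0.04 and 0.00. The cause of these losses was not tested.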

Other observations

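Lists for other cell states were read in the same libraries. Of 12 genes known from naive pluripotent cells, 5 reached 0.5 FPKM on average, and of these 2 fell with IWP2 and none rose (limma). They were TBX3, a T-box factor that is also expressed in mesoderm, from 74.0 to 10.9 FPKM, and KLF5, a Krüppel-like factor, from 8.17 to 2.19 FPKM. Of 7 definitive endoderm genes 6 were tested and 5 fell, with CER1, a secreted Nodal and BMP antagonist, from 1830 to 36.4 FPKM. SOX17 measured 129 and 87.3 FPKM and was not called (adjusted p = 0.167).

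Of 10 amnion and trophoblast genes 7 were tested, of which 3 rose and 1 fell. KRT7, a simple keratin, rose from 0.849 to 7.03 FPKM and TFAP2A, an AP-2 factor, from 14.3 to 34.1 FPKM. CDX2, a caudal homeobox factor, fell from 5.35 to 0.189 FPKM, and GATA3, the most abundant gene of this list, measured 41.7 and 36.2 FPKM. The summed level of this list was 84.7 and 92.0 FPKM in the DMSO libraries and 94.3 and 99.5 FPKM with IWP2, and its part in the results above was not tested. The only neuroectoderm gene of 6 that reached this level, PAX6, stood at 0.988 and 0.0558 FPKM and was not called (adjusted p = 0.078). Of 8 endothelial and blood genes, 2 were tested and RUNX1 fell from 2.43 to 0.280 FPKM.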
